A study of Sus scrofa with 30 samples.

Results

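The comparison described here set cerebral cortex of pigs given methylene blue against cortex of pigs given saline, both taken 180 min after return of spontaneous circulation. It comprised 6 of the 30 arrays of the study, chosen by their labels: 3 from pigs infused with methylene blue in saline (MB180) and 3 from pigs infused with saline alone (SAL180). All 6 pigs went through 12 min of cardiac arrest, induced as ventricular fibrillation under pentobarbital anaesthesia, and 8 min of mechanical chest compression before defibrillation. Saline at 55 mL/kg/h was infused in both arms, with methylene blue added at 7.5 mg/kg/h in MB animals, and the infusion ran from 1 min after the start of compression until 50 min after circulation returned. The 180 min samples were therefore taken 130 min after the infusion had ended. The animals were prepubertal farm pigs, males and females of a Swedish triple breed, between 12 and 14 weeks old and weighing 25.8 ± 1.3 kg, and were assigned to the arms at random per the labels. The same pair of arms was sampled at 30 min, during the infusion (MB30 and SAL30), and at 60 min, 10 min after it (MB60 and SAL60), and pigs with 0, 5, 20 or 30 min of arrest and no resuscitation made up the groups CA5, CA20, CA30 and their baseline CA0, with 3 arrays in each of the 10 groups. The labels call the arrays biological replicates and name neither the sex of an animal nor a processing batch.

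Methylene blue is a redox dye. It blocks nitric oxide synthases and the soluble guanylate cyclase that nitric oxide activates, inhibits monoamine oxidase A, and can shuttle electrons from NADH to cytochrome c in mitochondria. Reperfusion after arrest is known to induce immediate early genes and heat shock genes in the cortex, and arrest and reperfusion are known to open the blood-brain barrier.

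Each value is a scaled intensity in arbitrary units for a probe set, a group of short probes that reads a single stretch of transcript near its 3′ end. Differences are MB180 minus SAL180 on the log2(intensity + 16) scale, which understates the change of dim transcripts. A probe set is called where its Benjamini-Hochberg adjusted p over the 16799 tested probe sets was under 0.05 in limma. Of these, 7848 had a single gene symbol, 157 had several and 8794 had none.

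The control probe sets differed between the arms before any gene is considered. Poly-A spike-ins are bacterial RNAs added to each RNA sample ahead of labelling. Their mean log2 level was 6.86, 7.16 and 7.08 on the MB180 arrays and 7.70, 7.67 and 7.63 on the SAL180 arrays. All 3 MB180 arrays lay below all 3 SAL180 arrays, by 0.63 on average (two-sided exact permutation p = 0.1, the smallest that 3 arrays against 3 allow). Each of the 4 spike-in transcripts had a lower mean in MB180, from a log2 difference of -0.999 for dap to -0.36 for lys. The spike-in difference was -1.08 between MB30 and SAL30 and -0.90 between MB60 and SAL60. Hybridisation controls, which enter after labelling, differed by -0.02 between MB180 and SAL180 (exact p = 0.9).

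The 3′/5′ ratio compares probe sets at the ends of the same transcript (beta-actin, GAPDH and EF1a) and is higher where RNA is degraded or cDNA synthesis stops early. Its mean log2 value was 1.05, 0.97 and 1.20 on the MB180 arrays and 1.71, 1.39 and 2.59 on the SAL180 arrays (difference -0.82, exact p = 0.1). SAL180 replicate 3, at 2.59, stood apart from the other 5 arrays of the comparison and had the second highest ratio of all 30. Signal from 18S ribosomal RNA was higher in MB180 by 0.997 (exact p = 0.1). Median intensity was 103, 103 and 106 on the MB180 arrays and 93.0, 98.3 and 87.0 on the SAL180 arrays, with the lowest again on SAL180 replicate 3. The part of the spike-in level and the 3′/5′ ratio in the gene differences was not tested beyond the refits given next, and with 3 arrays an arm they move with the treatment label.

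**Figure D1:**
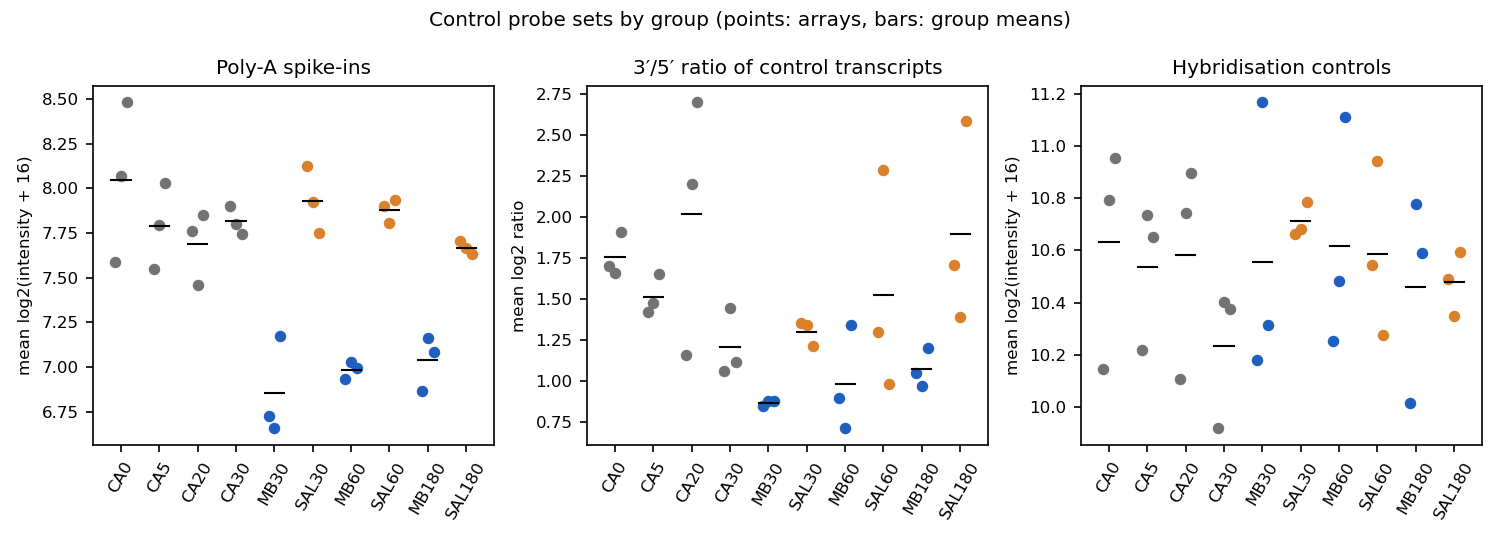
Control probe sets on all 30 arrays, as mean log2(intensity + 16) for the poly-A spike-ins and the hybridisation controls and as mean log2 ratio for the 3′/5′ measure, with 3 arrays (points) and their mean (bar) in each group. The 9 methylene blue arrays (blue) lie below the 21 others in the spike-in panel, and SAL180 holds an array with a 3′/5′ ratio of 2.59.

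With all 6 arrays, 215 of the 16799 probe sets were higher in MB180 (1.28%) and 104 were lower (0.619%). An unadjusted p under 0.05 was found for 3121, against 840 expected if nothing differed, and the median difference over all tested probe sets was 0.03. Without SAL180 replicate 3, 19 probe sets were higher (0.113%) and 4 lower (0.0238%), and 22 of these 23 were among the 319 called with it. The refit without replicate 3 reuses the other arrays by which the 319 were called, which favours the same sign and a small p. All 319 kept their sign without replicate 3 and had an unadjusted p under 0.05 there. Their median difference was 1.08 with replicate 3 and 0.93 without it for the higher probe sets, and -0.64 and -0.62 for the lower ones. Replicate 3 was the lowest of the 6 arrays for 153 of the 215 higher probe sets (71.2%, against 27.9% of all tested) and the highest for 58 of the 104 lower ones (55.8%, against 21.1%). The called probe sets were chosen on these same arrays, which favours a SAL180 array as the extreme one. The shares over all tested are therefore not a like background. With the 3′/5′ ratio of each array as a covariate, 15 were higher (0.0893%) and 3 lower (0.0179%). The counts also moved when other arrays were left out, to 373 higher and 238 lower without MB180 replicate 1, 31 and 9 without MB180 replicate 2, 58 and 20 without MB180 replicate 3, 76 and 23 without SAL180 replicate 1, and 343 and 123 without SAL180 replicate 2.

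**Figure D2:**
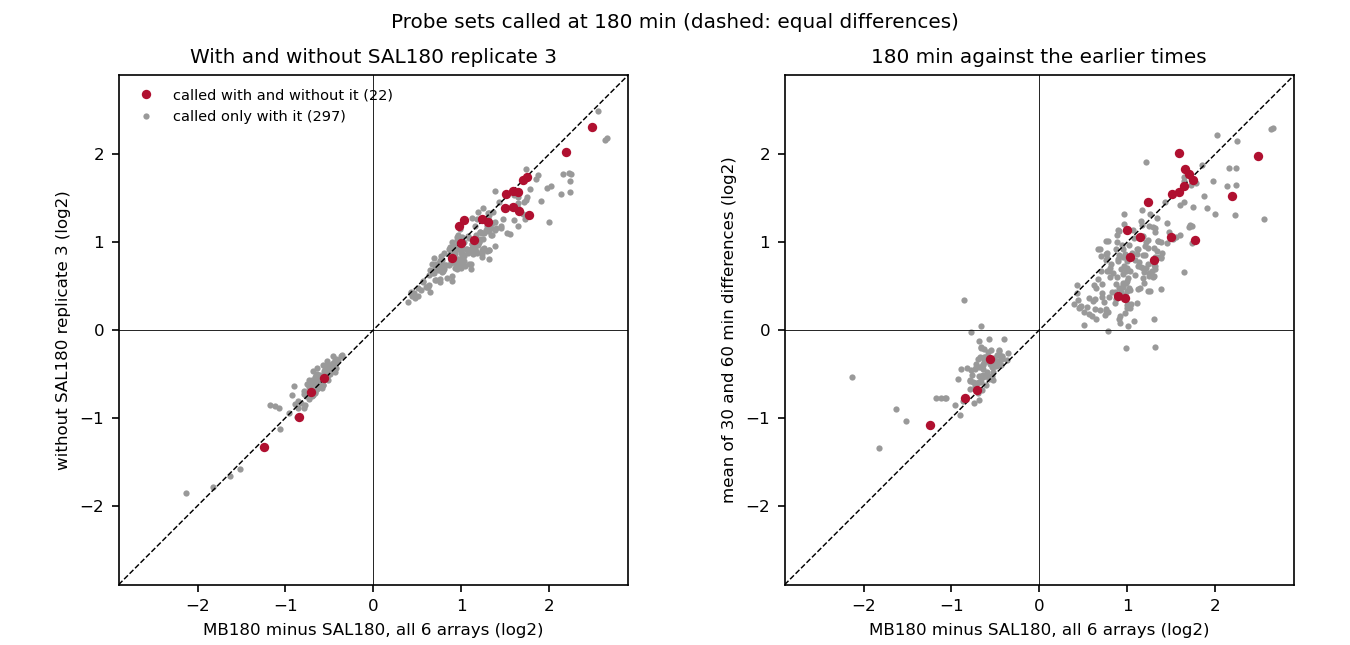
The 319 probe sets called at 180 min, as log2 differences. The left panel sets MB180 minus SAL180 over all 6 arrays (x) against the value without SAL180 replicate 3 (y), and the right panel sets it against the mean of the 30 and 60 min differences (y). The 22 probe sets called both ways are in red, and all 319 keep their sign in the left panel, whose axes share arrays.

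Called higher in MB180 with and without SAL180 replicate 3 were PSMD4, NDRG2, SLC37A4, PIP5K1A, PFDN6, NAP1L1 and ABRAXAS2. PSMD4, the proteasome subunit that binds ubiquitin chains, had intensities of 1217, 1056 and 1085 in MB180 and 310, 355 and 331 in SAL180. The lowest MB180 array was well above the highest SAL180 array, and SAL180 replicate 3 lay between the other SAL180 arrays. The log2 difference of PSMD4 was 1.71 ± 0.20 (SE, n = 3 per group, limma adjusted p = 2.69e-05) with all arrays, and 1.70 without SAL180 replicate 3 (adjusted p = 0.000354). NDRG2, a gene rich in astrocytes, had intensities of 2743, 3033 and 3065 in MB180 and 973, 1016 and 1074 in SAL180. Its groups were as far apart on a brighter probe set, with a log2 difference of 1.51 ± 0.17 (limma adjusted p = 7.19e-06) and 1.55 without replicate 3. PSMD4 and NDRG2 were the only 2 of the 34 named and called probe sets that stayed called under each of the 22 alternatives tried. PFDN6, NAP1L1 and ABRAXAS2 were not among these 34. PSMD4, NDRG2 and PFDN6 each had a single tested probe set, so no other could be set beside it.

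SLC37A4 carries glucose-6-phosphate into the endoplasmic reticulum. Its brighter probe set had intensities of 193, 200 and 165 in MB180 and 60.5, 43.2 and 49.8 in SAL180. The groups did not overlap, and the log2 difference was 1.59 ± 0.24 (limma adjusted p = 0.000754), with 1.58 left without SAL180 replicate 3. The other probe set of SLC37A4 gave 61.2, 101 and 120 in MB180 and 26.8, 31.3 and 54.8 in SAL180, a difference of 1.03 ± 0.24 (adjusted p = 0.0271) that was also called without replicate 3 (adjusted p = 0.0447). With the 3′/5′ covariate the brighter probe set was called (limma adjusted p = 0.0237) and the other was not (0.161), and with the poly-A covariate neither was (0.055 and 0.056). PIP5K1A, a kinase that makes phosphatidylinositol bisphosphate, had 524, 302 and 329 in MB180 and 122, 141 and 85.1 in SAL180. Here SAL180 replicate 3 was the lowest array, and the log2 difference was 1.59 ± 0.24 with it (limma adjusted p = 0.000754) and 1.41 without it (adjusted p = 0.015). The other PIP5K1A probe set, dim at 27.4 ± 6.23 (SD) in SAL180, had 0.42 ± 0.23 and was not called (adjusted p = 0.344).

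PFDN6, NAP1L1 and ABRAXAS2 were called both ways as well, and were chosen after their values were seen. With the 3′/5′ covariate they stayed called (limma adjusted p = 0.000187, 0.00644 and 0.0268, in that order). The same held with the poly-A level as the covariate, a refit chosen after seeing the data (limma adjusted p = 0.00048, 0.00391 and 0.0324). PFDN6, a subunit of the prefoldin co-chaperone that hands unfolded actin and tubulin to the chaperonin, had 614, 537 and 528 in MB180 and 211, 234 and 240 in SAL180. Its groups lay far apart with little spread within either, at a log2 difference of 1.23 ± 0.13 (limma adjusted p = 4.75e-06). NAP1L1, a histone chaperone, had 599, 911 and 706 in MB180 and 260, 345 and 256 in SAL180 on the called probe set (1.31 ± 0.18, limma adjusted p = 0.000177). The other 3 probe sets of NAP1L1 did not share this difference, at -0.27, -0.11 and -0.02. ABRAXAS2, the scaffold of a deubiquitinase complex, had 281, 409 and 414 in MB180 and 179, 221 and 165 in SAL180. That difference was 0.90 ± 0.15 (limma adjusted p = 0.00267), and its other probe set had 0.97, uncalled at an adjusted p of 0.0748.

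The other 11 of the 15 largest named rises were called only with SAL180 replicate 3, with adjusted p from 0.0818 to 0.269 without it. They included PICALM, which assembles clathrin coats, GABARAPL1, an autophagy protein of the ATG8 family, SCARB2 of the lysosomal membrane and KDELR2, the receptor that returns proteins to the endoplasmic reticulum. GABARAPL1 had 2433, 2315 and 2421 in MB180 and 1006, 1005 and 722 in SAL180 (log2 difference 1.39 ± 0.26, limma adjusted p = 0.00766). The groups of GABARAPL1 were apart with replicate 3 or without it, and the difference without it was 1.24 (adjusted p = 0.0818). PICALM had 585, 824 and 776 in MB180 and 185, 218 and 154 in SAL180 (1.88 ± 0.38, limma adjusted p = 0.0134). It is also a gene whose probe sets differ, since the others gave -0.22 and 0.45. DZANK1, at the top of the list by size with 2.25 ± 0.53 (limma adjusted p = 0.0285), had 459, 1204 and 1309 in MB180 and 222, 384 and 59.8 in SAL180. The low value of DZANK1 was that of SAL180 replicate 3, and the difference was 1.57 without it (adjusted p = 0.216). The remaining rises were SLC3A1, ARPC2, OSBPL1A, SRP72, UBAP2L and GMFB, between 1.43 and 2.24.

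Falls in MB180 were smaller, and their 3 genes called with and without SAL180 replicate 3 were POLR2B, SET and DCTN4. POLR2B, a core subunit of RNA polymerase II, had 475, 304 and 250 in MB180 and 888, 823 and 710 in SAL180 on the called probe set. The difference was -1.24 ± 0.22 (SE, n = 3 per group, limma adjusted p = 0.00484) and -1.33 without replicate 3 (adjusted p = 0.0155). The other 3 POLR2B probe sets had positive differences of 0.52, 0.24 and 0.53, none of them called, and the brightest of them had 2286, 3356 and 3696 in MB180 against 2453, 2084 and 1865 in SAL180. So the fall holds for the transcript stretch that 1 of 4 probe sets reads. SET, a histone chaperone and inhibitor of protein phosphatase 2A, had 2385, 2419 and 2486 in MB180 and 4082, 3876 and 3988 in SAL180. The spread within each arm was small beside the log2 difference of -0.71 ± 0.12 (limma adjusted p = 0.00267), which was -0.71 without replicate 3 too (adjusted p = 0.0188). The other SET probe set had 1459, 1467 and 1561 in MB180 and 1418, 1479 and 1382 in SAL180, a difference of 0.07 ± 0.11. DCTN4, a dynactin subunit chosen after its values were seen, had 1023, 1154 and 1226 in MB180 and 1732, 1584 and 1719 in SAL180. That gave -0.56 ± 0.10 (limma adjusted p = 0.00395), beside other DCTN4 probe sets at 0.80 and -0.05. With the 3′/5′ covariate SET had -0.52 (limma adjusted p = 0.0586) and DCTN4 -0.45 (adjusted p = 0.0749), neither called. With the poly-A level as the covariate, a refit chosen after seeing the data, SET, DCTN4 and POLR2B all missed the threshold (limma adjusted p = 0.0737, 0.0561 and 0.0589).

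The other 13 of the 15 largest named falls were called only with SAL180 replicate 3, with adjusted p from 0.0506 to 0.253 without it. They included MTF2, an accessory protein of the Polycomb repressive complex, SIN3A, a corepressor scaffold, ALYREF and XPO5, which export RNA from the nucleus, and NFIA, a transcription factor of glial development. MTF2 had 688, 533 and 577 in MB180 and 959, 889 and 1246 in SAL180 (-0.76 ± 0.15, limma adjusted p = 0.0112). ADCK2, the one fall with more than a single called probe set, had 138, 115 and 107 in MB180 and 231, 225 and 193 in SAL180. It differed by -0.77 ± 0.16 (limma adjusted p = 0.015) and by -0.72 on its other probe set, and missed the threshold without replicate 3 at an adjusted p of 0.0506. RPL38, a protein of the large ribosomal subunit, had the largest fall by size at -2.14 ± 0.56 (limma adjusted p = 0.0456), with 397, 367 and 346 in MB180 and 1364, 1393 and 2492 in SAL180. Its far brighter probe set, averaging 5833 ± 523 in MB180 and 7155 ± 926 in SAL180 (SD), had -0.29 and was not called. FLVCR2, ETNK2, SPECC1, GOSR2, UBE2O and MGAT1 made up the rest, between -1.63 and -0.68.

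**Figure D3:**
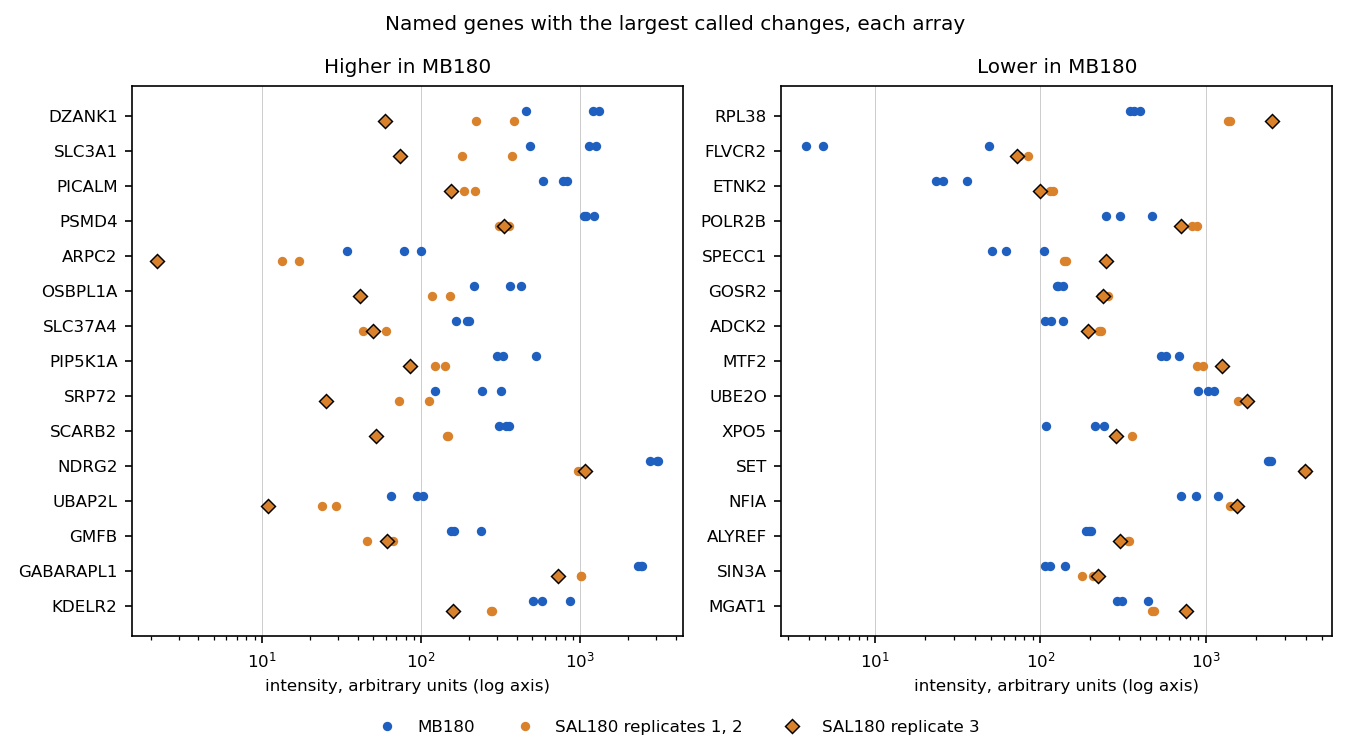
Intensity (log axis, arbitrary units) of the 15 largest named rises and the 15 largest named falls on each array, with MB180 in blue above SAL180 in orange and SAL180 replicate 3 as a diamond. The arms do not overlap for any of the 30, as the naming rule required, and the diamond is the lowest point in genes such as DZANK1 at 59.8.

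Several probe sets of a gene were seldom called together. Of the 101 genes called higher, 72 had several tested probe sets, and 2 of these had more than 1 called, SLC37A4 and ERGIC1, the second a protein of the compartment between endoplasmic reticulum and Golgi that was chosen after its values were seen. For 43 of the 72, every tested probe set had a positive difference. Of the 54 genes called lower, 23 had several and only ADCK2 had more than 1 called. For 8 of the 23, every tested probe set had a negative difference. The called probe set of each gene had its sign by selection. No background share was computed for the 43 or the 8, so neither count is read as agreement. No gene had probe sets called in opposite directions. With 1 probe set per gene, the brightest, 41 of 5773 genes were higher (0.71%) and 47 were lower (0.814%). The called probe sets also differed in level: the median CA0 intensity was 83.6 for those called higher and 721 for those called lower, beside 209 over all tested. A single gene symbol was attached to 103 of the 215 higher and 55 of the 104 lower probe sets. The smallest p of the comparison belonged to a probe set unnamed here, with 1283, 1248 and 1218 in MB180 and 454, 476 and 371 in SAL180 (log2 difference 1.50 ± 0.12, limma adjusted p = 7.67e-08).

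The earlier times asked whether these differences belonged to 180 min. The 30 and 60 min arrays share no animal with the 180 min arrays. At 30 min 403 probe sets were higher in MB30 than SAL30 (2.4%) and 284 lower (1.69%), and at 60 min 122 were higher in MB60 (0.726%) and 134 lower (0.798%). Of the 215 called higher at 180 min, 207 had a positive difference at both earlier times, which 38.1% of all tested probe sets had, and the calls recurred for 90 in MB30, for 70 in MB60 and for 55 in both. Of the 104 called lower, 100 had a negative difference at both, against 34.4% of all tested, with 43 called at 30 min, 24 at 60 min and 13 at both. No probe set was called in the opposite direction. The contrasts at each time share the same variance estimate for a probe set, so the recurring calls are not independent of those at 180 min. The 215 had a median difference of 0.83 in MB30, 0.77 in MB60 and 1.08 in MB180, and the 104 had medians of -0.44, -0.41 and -0.64 in the same order. Both sets were chosen at 180 min, which favours the larger median there. The 6 MB30 and MB60 arrays lay above all 6 SAL30 and SAL60 arrays for 126 of the 215 (58.6%, against 3.22% of all tested), and below them for 51 of the 104 (49.0%, against 2.80%). A test of the 180 min difference against the mean of the 30 and 60 min differences called 0 of 16799 (0%), with a smallest adjusted p of 0.959 and 557 at an unadjusted p under 0.05 in limma, fewer than the 840 expected. Without SAL180 replicate 2 it called 2.

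For several named genes the difference was of similar size at each time. PSMD4 differed by 1.61 at 30 min and 1.95 at 60 min, NDRG2 by 1.26 and 1.84, PFDN6 by 1.48 and 1.43, PIP5K1A by 2.08 and 1.96 and the brighter SLC37A4 probe set by 1.79 and 1.36. In SAL180 these genes were near the CA0 baseline: PSMD4 averaged 332 ± 22.8 in SAL180 and 354 in CA0, and NDRG2 averaged 1021 ± 50.3 in SAL180 and 1083 in CA0 (SD, n = 3). Among the falls, POLR2B differed by -1.18 in MB30 and -0.97 in MB60, and SET by -0.64 and -0.73. Other genes had smaller early differences, none of them called. ABRAXAS2 had 0.90 in MB180 but 0.51 in MB30 and 0.27 in MB60. ARPC2 had 1.65 but 1.07 and 0.24, and RPL38 had -2.14 but -0.72 and -0.35. These genes were chosen at 180 min, which favours smaller differences at other times, and the test of the change called none of them. ARPC2 was also dim in SAL180, at 13.5, 17.1 and 2.20. Among the 215 probe sets called higher, 67 had all 9 methylene blue arrays above all 21 other arrays, arrest without resuscitation included, and 26 of the 104 called lower had all 9 below. Over all 16799 tested, 114 (0.679%) had all 9 above and 65 (0.387%) had all 9 below. These counts include the 180 min arrays by which the probe sets were called. Without the 180 min arrays, the 6 MB30 and MB60 arrays lay above the 18 others for 110 of the 215 (51.2%, against 1.84% of all tested). They lay below the 18 for 40 of the 104 (38.5%, against 1.10%). The poly-A spike-ins separate all 9 arrays from the 21 too, with the 9 methylene blue arrays between 6.66 and 7.17 and the 21 others between 7.46 and 8.48. An effect of methylene blue and a difference in how its arrays or animals were handled cannot be told apart for such probe sets, since the labels name no batch.

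**Figure D4:**
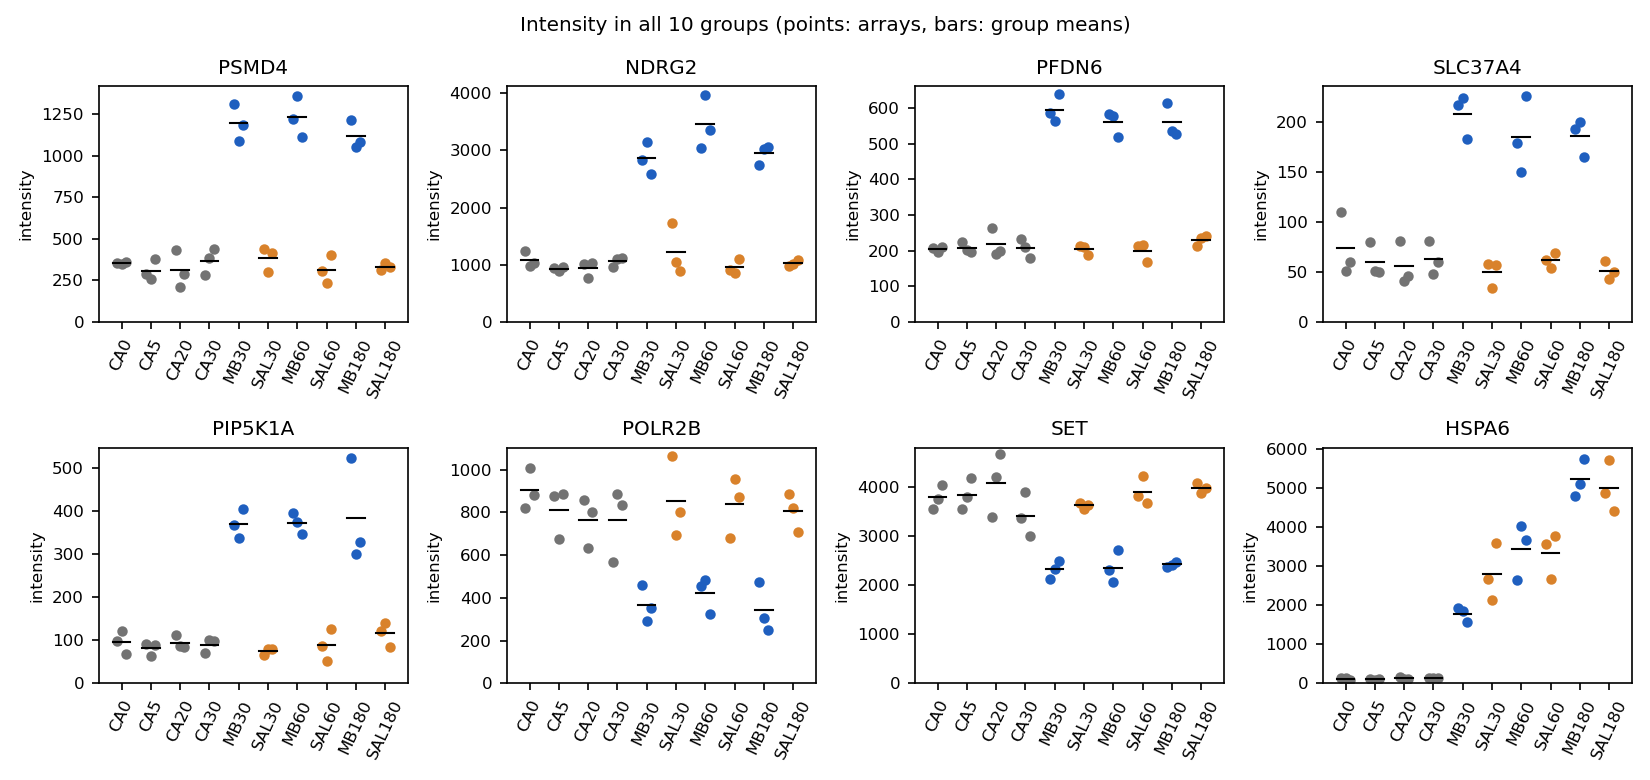
Intensity of 8 genes in all 10 groups (points, arrays; bars, group means; axes from 0; methylene blue in blue, saline in orange, arrest without resuscitation in grey). PSMD4, NDRG2, PFDN6, SLC37A4 and PIP5K1A are high and POLR2B and SET low in each methylene blue group, while HSPA6 is high in both arms after resuscitation.

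Listed genes for nitric oxide and cGMP signalling and for monoamine oxidation did not pass the test. Of 11 measured nitric oxide and cGMP genes, 0 were called by limma (1 at an unadjusted p under 0.05) and the median difference was 0.01. The median was 0.03 over all tested probe sets and -0.02 over all genes, each read by its brightest probe set. NOS2, the inducible nitric oxide synthase, had 47.9, 74.7 and 80.0 in MB180 and 22.8, 61.8 and 29.8 in SAL180. The arms overlapped, and the difference was 0.67 ± 0.30 (limma adjusted p = 0.227). NOS3, the endothelial synthase, had 0.38 ± 0.22 (adjusted p = 0.353), and GUCY1B3, the beta subunit of soluble guanylate cyclase, had 0.31 (adjusted p = 0.496). MAOA, the oxidase that methylene blue inhibits, had 1136, 912 and 972 in MB180 and 849, 1082 and 1046 in SAL180, a difference of 0.02 with a 95% interval from -0.35 to 0.40. MAOB, its paralog, had 493, 556 and 520 in MB180 and 725, 861 and 729 in SAL180. Its arms did not overlap, but -0.54 ± 0.26 did not pass (limma adjusted p = 0.268). Of the 10 measured genes for dye-reducing enzymes, monoamine oxidases and heme oxidation, 0 were called (2 at an unadjusted p under 0.05, both lower), and POR, which reduces cytochrome P450 enzymes, had -0.46 ± 0.17 (adjusted p = 0.145).

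Few genes of energy supply and the proteasome were called. The gene lists here read each gene by its brightest probe set, on which 0.71% of all genes were called higher and 0.814% lower. Shares with non-overlapping arms, given below for the lists, are over all tested probe sets and so are not a like background. Counting any probe set, 5 listed genes had another that was called, higher for SLC37A4, SLC1A1, ATP5L and DNAJB9 and lower for ABCG2. For SLC1A1, which carries glutamate into neurons, that call (limma adjusted p = 0.0243) was lost without SAL180 replicate 3 (0.202). Of 57 nuclear-encoded respiratory chain genes, 2 were called lower and 0 higher, at a list median of -0.03. NDUFB9, a subunit of complex I, had 2142, 2136 and 2124 in MB180 and 3255, 3823 and 3113 in SAL180, with a difference of -0.66 ± 0.15 (limma adjusted p = 0.0224, and 0.08 without SAL180 replicate 3). ATP5J, a coupling subunit of ATP synthase, had 522, 549 and 513 in MB180 and 762, 695 and 874 in SAL180 (-0.54 ± 0.12, limma adjusted p = 0.0207, and 0.153 without replicate 3). ATP5L, another ATP synthase subunit, had -0.27 on its brightest probe set, uncalled, but 1.16 ± 0.29 on a dimmer one (limma adjusted p = 0.0391, and 0.223 without replicate 3). Of 40 proteasome genes, PSMD4 was called higher and PSMD11 and PSMD13, also subunits of the regulatory particle, were called lower, at -0.42 ± 0.10 and -0.46. PSMD11 had 2252, 2018 and 2018 in MB180 and 2686, 2596 and 3194 in SAL180, and was not called without replicate 3 (adjusted p = 0.202). Over the proteasome list, 11 of 40 genes had all MB180 arrays below all SAL180 arrays and 4 had all above, where 9.61% and 12.1% of all tested probe sets did so. The summed proteasome intensity was 49046 to 49888 in MB180 and 52321 to 53625 in SAL180, although it includes PSMD4. At an unadjusted p under 0.05 in limma, 9 proteasome genes were lower and 2 higher, against 17.3% of genes in either direction. Without SAL180 replicate 3 PSMD4 remained the 1 called gene of this list and the respiratory chain list had 0, while centring each array on its median gave 6 and 4 lower. Of 27 genes of glucose-6-phosphate transport, glycolysis and gluconeogenesis, SLC37A4 alone was called, and 6 others had all MB180 arrays below all SAL180 arrays, among them TKT of the pentose phosphate pathway at -0.46 ± 0.14 (adjusted p = 0.0773).

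Several heat shock and immediate early genes were above CA0 in both arms and were not called between the arms. Both of the tests against CA0 use the same 3 CA0 arrays, and called 5.7% of probe sets higher for MB180 and 0.619% for SAL180. HSPA6, HSP70.2, BAG3, ATF3 and CEBPD passed in each arm. Minus CA0, ATF3 had 2.66 in MB180 and 2.67 in SAL180, CEBPD had 2.61 and 2.08, and BAG3 had 2.47 and 1.66. FOS passed in MB180 (1.55, limma adjusted p = 0.0191) and did not pass in SAL180 (1.53, adjusted p = 0.0797). HSPA6, an inducible heat shock protein, had 4808, 5114 and 5758 in MB180 and 4886, 5731 and 4404 in SAL180, beside a mean of 116 in CA0. The MB180 minus SAL180 difference was 0.07 ± 0.20, with a 95% interval from -0.34 to 0.47. HSP70.2, the inducible Hsp70, had 9760, 11498 and 9899 in MB180 and 11079, 11872 and 10122 in SAL180 (-0.09 ± 0.39). In CA0 the mean of HSP70.2 was 1598 ± 1684 (SD), so the baseline arrays varied widely. Every array of both arms was far above the CA0 mean for these heat shock genes, and the arms overlapped. BAG3, a co-chaperone of Hsp70, had 466, 564 and 528 in MB180 and 231, 395 and 259 in SAL180. Its arms did not overlap, and 0.81 ± 0.30 did not pass (limma adjusted p = 0.151). Of 26 heat shock and cytosolic chaperone genes 0 were called (3 at an unadjusted p under 0.05), with a median of 0.04. Of 27 immediate early genes 0 were called (2 at an unadjusted p under 0.05), with a median of 0.03: ATF3 had -0.01 ± 0.30, FOS 0.02 ± 0.41, with a 95% interval from -0.83 to 0.86, and CEBPD 0.54 ± 0.34 (adjusted p = 0.41). The arms of CEBPD did not overlap, with 955, 1022 and 1022 in MB180 and 697, 642 and 715 in SAL180. JUN had 1895, 2969 and 2797 in MB180 and 3284, 3797 and 4706 in SAL180, a difference of -0.63 ± 0.30 (adjusted p = 0.253).

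On their brightest probe sets, the other listed stress and inflammatory genes were not called. Of 21 genes of the unfolded protein and integrated stress response, 0 were called and the median was -0.09. At an unadjusted p under 0.05 in limma 5 were lower and 1 higher, against 17.3% of all genes in either direction, and 5 had all MB180 arrays below all SAL180 arrays, as 9.61% of all tested probe sets did. DNAJB9, a chaperone of the endoplasmic reticulum, had 332, 360 and 338 in MB180 and 484, 551 and 471 in SAL180 on its brightest probe set (-0.53 ± 0.17, limma adjusted p = 0.0922). A different probe set of DNAJB9 was called higher, with 577, 629 and 482 in MB180 and 255, 385 and 213 in SAL180 (0.98 ± 0.26, limma adjusted p = 0.0485, and 0.252 without SAL180 replicate 3), and the remaining probe set had 1.07 (adjusted p = 0.0777). The probe sets of DNAJB9 thus differ in sign. HSPA5, the main Hsp70 of that compartment, had -0.44 ± 0.18 (adjusted p = 0.182). Of 15 cytokine, adhesion and NF-kB genes 0 were called, 0 also at an unadjusted p under 0.05, and the median was 0.19. CXCL2, a neutrophil chemokine, had 21.2, 106 and 64.6 in MB180 and 23.5, 18.8 and 47.6 in SAL180, with overlapping arms. IL1B, the cytokine interleukin 1 beta, had 0.25 ± 0.23 and CCL4, a chemokine for monocytes, had 0.81 ± 0.47 (adjusted p = 0.609 and 0.368). Oxidative stress defence (25 genes, median -0.01), hypoxia targets (13, median 0.09), apoptosis and p53 targets (7, median 0.14) and glutamate and GABA transmission (10, median 0.13) each had 0 called, with 2, 2, 0 and 1 at an unadjusted p under 0.05.

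At the blood-brain barrier, ANGPT2 was the only 1 of 18 measured genes called on the brightest probe set, where 0.71% of all genes were called higher, and the list median was 0.25. ANGPT2, an angiopoietin that loosens endothelial contacts, had 101, 237 and 196 in MB180 and a mean of 74.8 ± 6.42 (SD) in SAL180, where the highest array had 82.2. The arms did not overlap and the difference was 1.03 ± 0.26 (limma adjusted p = 0.0371), a call lost without SAL180 replicate 3 (0.99, adjusted p = 0.168). ABCG2, a drug efflux pump, had -0.08 on its brightest probe set, while another was called lower, with 413, 295 and 359 in MB180 and 540, 515 and 616 in SAL180 (-0.63 ± 0.14, limma adjusted p = 0.0243, and 0.158 without replicate 3). TIMP3, an inhibitor of matrix metalloproteinases, had 0.84 ± 0.26 (adjusted p = 0.0858), and CLDN5, the main claudin of brain endothelium, had -0.35 ± 0.24 (adjusted p = 0.451). VEGFA, which raises vessel permeability, had 63.9, 80.1 and 87.3 in MB180 and 43.9, 87.9 and 26.2 in SAL180, overlapping, at 0.53 ± 0.32. ADAMTS1, a secreted protease, had -0.40 ± 0.25 and HMOX1, which degrades heme, had 0.36 ± 0.30, neither called.

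Cell type markers matched the labelled tissue. MAP2 of neurons was read at 6590 or above, GFAP of astrocytes at 5498 or above and CLDN11 of oligodendrocytes at a mean of 6667 in MB180 and 7148 in SAL180. A difference in the number of cells of a type and a difference in RNA per cell cannot be told apart in such bulk tissue. Among 10 astrocyte markers NDRG2 was called and the other 9 were not, with GFAP at -0.26 ± 0.23 and GLUL, glutamine synthetase, at 4036, 3066 and 7386 in MB180 and 7617, 8036 and 9089 in SAL180 (-0.87 ± 0.24, limma adjusted p = 0.0605). Of 15 neuron, 13 endothelial, 13 oligodendrocyte, 8 microglia and leukocyte and 9 smooth muscle and pericyte markers, 0 were called, with 1, 2, 2, 0 and 2 at an unadjusted p under 0.05 and list medians of 0.09, 0.04, -0.11, -0.08 and -0.04. Of the 13 oligodendrocyte markers, 11 had a negative difference and 2 a positive one. The list median was -0.38 at 30 min and -0.55 at 60 min. Its 2 genes with the smallest p were OPALIN at -0.62 ± 0.27 and TF at -0.59 ± 0.26 (limma adjusted p = 0.224 and 0.227). Without SAL180 replicate 3 they had -0.31 and -0.34. MBP, the myelin basic protein gene, had a difference of 0.72 ± 0.27 (adjusted p = 0.144) on the probe set with its largest change and -0.02 on its brightest.

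Markers of meninges and fibroblasts had the highest median of the lists with at least 5 members, 0.67 over 9 genes (0.40 without SAL180 replicate 3), with 4 genes having all MB180 arrays above all SAL180 arrays, as 12.1% of all tested probe sets did. Their summed intensity ran from 9039 to 12014 in MB180 and from 8383 to 10834 in SAL180, and 0 were called, with 4 at an unadjusted p under 0.05 in limma, against 17.3% of all genes. COL3A1, a fibrillar collagen, had 231, 379 and 377 in MB180 and 121, 210 and 160 in SAL180 (0.94 ± 0.37, limma adjusted p = 0.178), and MGP, a matrix protein, had 0.81. The part of such cells in the differences above was not tested. Red blood cell markers had a median of 0.74 over 3 genes (0.39 without SAL180 replicate 3), with summed intensities of 828 to 1496 in MB180 and 676 to 1149 in SAL180 and 0 called, and both oligodendrocyte precursor and both choroid plexus genes measured were uncalled. EIF1AY, a Y-linked gene, was at 608, 507 and 521 in MB180 and 0.804, 438 and 588 in SAL180, so that 1 SAL180 animal differed from the other 5 in this gene.

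**Figure D5:**
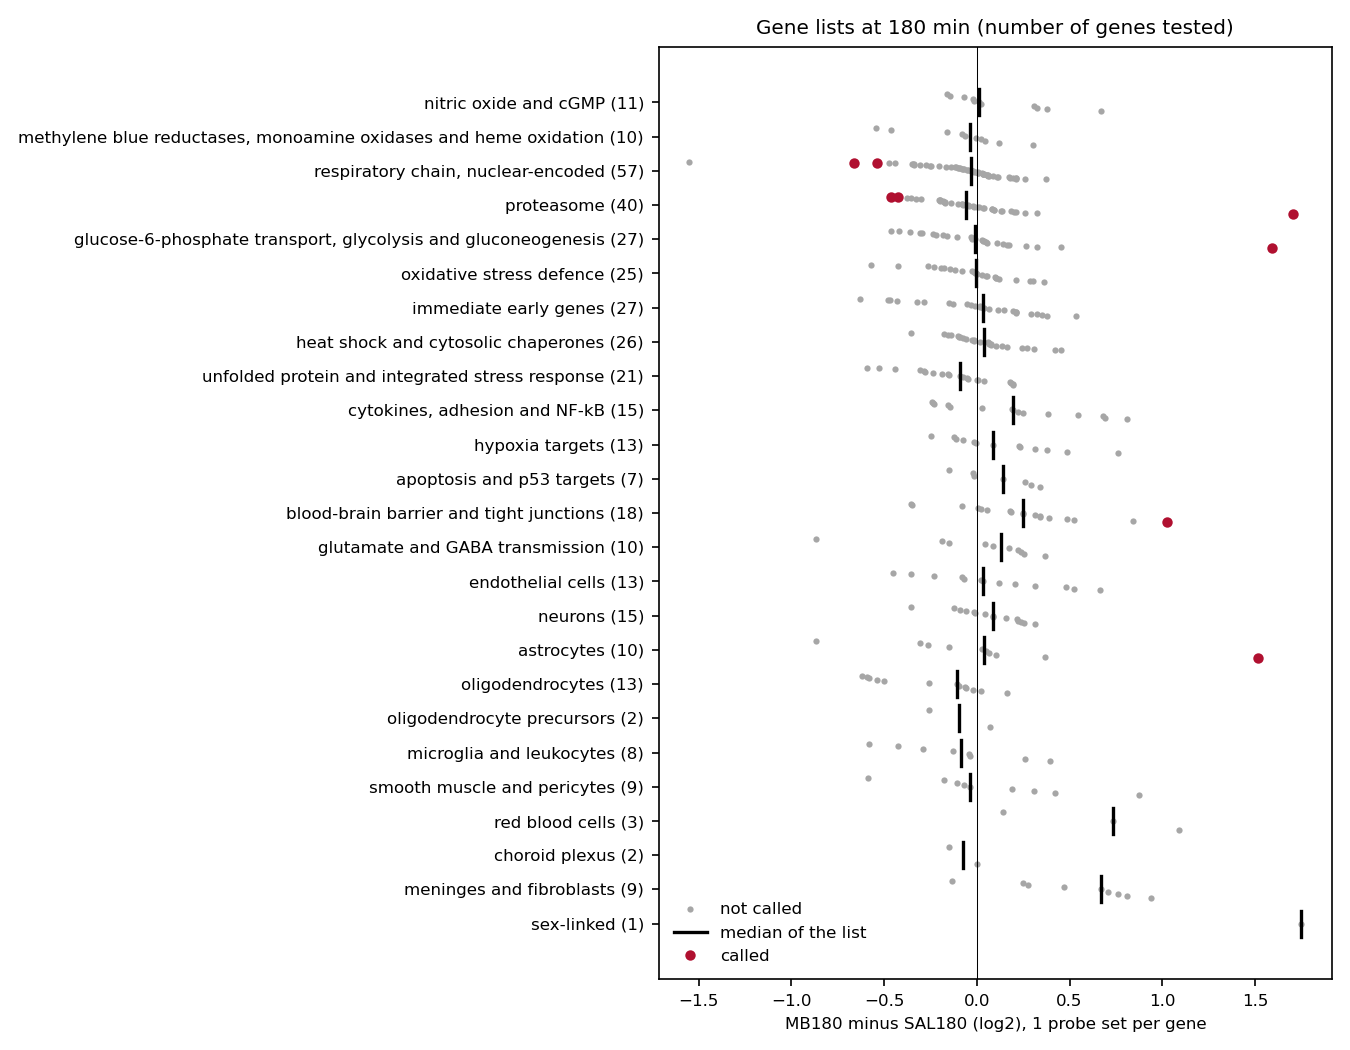
MB180 minus SAL180 log2 differences of the gene lists, with 1 probe set per gene, as grey points (not called), red points (called) and black bars (list medians). Most lists centre near 0, and PSMD4 at 1.71, SLC37A4 at 1.59 and NDRG2 at 1.51 stand far to the right of their lists.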

How the data were processed

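The values are intensity on a linear scale, 1 per probe set and array, as deposited by the authors, made with GCOS per the submitters' processing notes. Its version, signal algorithm and settings are not named by the labels. The mean of each array after trimming 2% at each end was 300.05 to 300.06. The 124 control probe sets (AFFX) of 24123 were left out of gene tests. Values became log2(intensity + 16), and probe sets with a mean under the 30th percentile (intensity 29.5) were dropped, which left 16799. One fit with limma 3.58.1 in R 4.3.3 gave all 10 groups a mean (20 residual degrees of freedom), with moderated variances, an intensity trend and Benjamini-Hochberg adjustment per contrast. Arrays have no counts, so 3 arrays per group limit the precision. The limma standard errors and p-values rest on the moderated spread between arrays within all 10 groups, not within MB180 and SAL180 alone.

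Symbols came from GEO's platform table, where 9989 of 10099 single-symbol entries had a gene ID that the reference table holds. Named genes were, among called probe sets with 1 symbol and non-overlapping arms, the 15 with the largest change in each direction, 2 members of each of 25 lists by smallest p, and a fixed set. NOS1, CYB5R3 and BLVRB had no probe set by symbol. List medians use the brightest probe set per gene, and fixed genes the one with the largest change. Lists with under 3 measured members are given by counts. The members, lists and tests were chosen with earlier results of these data known. For control measures, exact permutation tests (two-sided) were used. The fit was tested on simulated data. Alternatives covered the pseudocount, filter, normalization, groups fitted, array weights, covariates, replicate block and arrays left out. Same-numbered MB180 and SAL180 arrays did not deviate together (correlations -0.04, 0.05 and -0.15), so they were not treated as pairs. No 2 arrays held identical values.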

Additional observations from a re-analysis of the deposited data

How the results depend on the processing

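At 180 min the counts with all arrays were 215 higher and 104 lower. Scaling changed the balance: median centring gave 170 higher and 502 lower, with the median over all probe sets at -0.11 in place of 0.03, and quantile normalization gave 144 and 120. A filter at the 50th percentile gave 120 higher. A fit to the 2 groups alone gave 14 and 1, to the 6 resuscitated groups 61 and 11, and array weights gave 717 and 541. The 3′/5′ covariate gave 15 and 3. Of the alternatives chosen after seeing the data, the poly-A covariate gave 42 and 6, both covariates 15 and 4, leaving out the 4 arrays with the highest 3′/5′ ratio 29 and 6, and a threshold of 0.01 gave 32 and 5. Leaving out 1 array of the comparison gave 19 to 373 higher and 4 to 238 lower, and 0 to 2 calls for the change between 180 min and the earlier times. A pseudocount of 64 gave 184 higher at 60 min. The replicate number as a block gave 167 and 79 at 180 min, 358 and 239 for MB30, and 107 and 110 for MB60, with no other call changed by over 1.5 times. The cause of these shifts was not tested. Of 34 named called probe sets, 32 lost their call under at least 1 alternative and 0 changed sign.

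Signs turned only among 8 uncalled genes. Median centring put MAOA at -0.12, HSPA6 at -0.079 and FOS at -0.13. The 3′/5′ covariate put HSPA6 at -0.22, FOS at -0.31 and GFAP at 0.080. The poly-A covariate put LCP1 at 0.012, HSPA6 at -0.16 and FOS at -0.75. Both covariates put CCL4 at -0.27, OPALIN at 0.0066, LCP1 at 0.20, HSPA6 at -0.44, FOS at -1.06 and GFAP at 0.24. Array weights put ATF3 at 0.17, and leaving out the 4 arrays put HSPA6 at -0.022 and ATF3 at 0.11. Leaving out 1 array gave -0.084 to 0.089 for MAOA, -0.022 to 0.17 for HSPA6, -0.19 to 0.15 for ATF3 and -0.24 to 0.15 for FOS.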
